A study of Homo sapiens with 40 samples.

Results

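The carcinoembryonic antigen-related cell adhesion molecules (CEACAMs) were followed in A549 cells, a line from a human lung adenocarcinoma, with and without the histone methyltransferase SETDB1. The 7 genes described are CEACAM1, CEACAM3, CEACAM5, CEACAM6, CEACAM7, CEACAM8 and CEACAM19, out of 62486 genes in the count table, each found by its Ensembl identifier. They were chosen with the RNA-seq difference between the genotypes known, so their RNA values are given as a description and carry no test. To them were added the peaks of 5 chromatin marks and 11 Hi-C compartment bins in a window of 1.1 Mb of chromosome 19 (chr19:42000001-43100000, hg19). No annotation of hg19 was used, so peaks and bins are given by position and are not assigned to single genes.

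CEACAMs are cell-surface proteins of the immunoglobulin superfamily that bind one another in the same cell or between neighbouring cells, and several are receptors for bacteria of the mucosa. CEACAM5, the carcinoembryonic antigen measured in serum as a tumour marker, CEACAM6, CEACAM7 and CEACAM8 are held in the membrane by a glycosylphosphatidylinositol (GPI) anchor, whereas CEACAM1, CEACAM3 and CEACAM19 cross the membrane. CEACAM1 carries inhibitory motifs that recruit the phosphatases PTPN6 (SHP-1) and PTPN11 (SHP-2). CEACAM5 and CEACAM6 are known from glandular epithelia and carcinomas, CEACAM7 from colon epithelium, and CEACAM3 and CEACAM8 from granulocytes. SETDB1 methylates lysine 9 of histone H3, and the trimethylated form (H3K9me3) marks silenced chromatin.

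The control group (CT) was A549 cells labelled Control, and the knockout group (KO) was A549 cells whose SETDB1 gene had been disrupted with CRISPR/Cas9 from the PX458 plasmid. Both were grown in the same serum-containing medium, and no other treatment is given. There were 3 RNA-seq libraries per genotype, 2 Hi-C libraries per genotype, and 1 deposited peak list per genotype for each of H3K9me3, H3K27me3, H3K27ac, H3K4me3 and CTCF. The labels do not say whether the KO cells are 1 clone or a pool, or whether replicates came from separate cultures, so p-values measure only the spread between these samples, which may be technical. RNA libraries held between 18065062 and 48364919 counts. SETDB1 RNA was 37.5, 39.6 and 38.7 CPM (counts scaled to the library's total) in CT and 23.4, 21.2 and 21.1 CPM in KO, a log2 fold change of -0.82 (SE 0.0598, adjusted p = 1.7e-12 by edgeR's quasi-likelihood test), which checks the labels by RNA level only. Of 12 lung epithelial markers, SFTPA1 was at 0 in all libraries and NKX2-1 at 0 counts in CT and 5 in KO, while the list as a whole, carried by KRT8 and other keratins, summed to 4462 to 4885 CPM in CT and 10826 to 11630 CPM in KO.

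The promoters are shown first, because the RNA of the members that sit side by side behaved differently although their upstream sequences are alike. RefSeq promoter windows (GRCh38.p14) were found for 6 of the 7 members, and the 200 bases before the start are printed 5′ to 3′ for CEACAM6 (chr19:41755330-41755529, plus strand), CEACAM5 (chr19:41708426-41708625, plus strand), CEACAM7 (chr19:41688271-41688470, minus strand) and CEACAM1 (chr19:42528482-42528681, minus strand). These positions are on a different build from the hg19 window and its peaks, so they cannot be compared with it directly. Capitals mark the E-box CACGTG.
CEACAM6: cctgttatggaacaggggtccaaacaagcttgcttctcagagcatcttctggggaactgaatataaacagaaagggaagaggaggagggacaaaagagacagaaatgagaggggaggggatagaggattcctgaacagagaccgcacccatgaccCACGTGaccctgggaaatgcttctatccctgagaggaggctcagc
CEACAM5: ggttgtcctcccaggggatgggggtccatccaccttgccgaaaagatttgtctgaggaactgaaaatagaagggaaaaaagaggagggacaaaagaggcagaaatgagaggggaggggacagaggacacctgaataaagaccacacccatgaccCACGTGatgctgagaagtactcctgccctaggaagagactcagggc
CEACAM7: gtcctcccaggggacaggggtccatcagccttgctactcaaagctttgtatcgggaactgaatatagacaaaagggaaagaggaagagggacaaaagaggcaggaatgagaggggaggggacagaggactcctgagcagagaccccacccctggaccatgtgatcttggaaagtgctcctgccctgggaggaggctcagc
CEACAM1: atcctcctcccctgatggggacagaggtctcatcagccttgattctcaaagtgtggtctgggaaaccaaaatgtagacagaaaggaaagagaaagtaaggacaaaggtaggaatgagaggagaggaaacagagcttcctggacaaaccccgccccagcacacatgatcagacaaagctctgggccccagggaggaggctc

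Over the 250 bases before the start, the 15 pairs of members were between 66.4% and 84.0% identical in the aligned bases. CEACAM5 and CEACAM7 were the most alike (84.0%), and CEACAM5 and CEACAM6 were 78.1% identical. The E-box CACGTG, searched on both strands, was found in the windows of CEACAM5 (46 to 41 bases before the start) and CEACAM6 (45 to 40 bases before the start) and in none of the other 4, beside 6.34% of 35116 RefSeq windows of the same length. The interferon-response core GAAANNGAA was found in CEACAM1 and CEACAM6 (6.88% of all windows), and TATAAA in CEACAM6 alone of the 6 (10.7%). The GC box GGGCGG was found in 3 members (42.6%) and CACCC, a site type of KLF factors, in 5 (54.7%). The AP-1 type TGANTCA (6.57%) and the NF-kB type GGGNNTTCC (5.78%) were found in none. These matches say only which letters are present, and no factor's binding was measured there.

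CEACAM6 (ENSG00000086548) had by far the most counts of the 7 genes in KO. Its RNA was 3.40, 3.04 and 2.58 CPM in the CT libraries and 755, 731 and 771 CPM in the KO libraries. The groups lay far apart, with each genotype's libraries close together. The mean was 251-fold higher in KO (log2 fold change 7.98, SE 0.070). CEACAM5 (ENSG00000105388) had no count in any CT library and 2.31, 1.81 and 2.32 CPM in KO, from 53, 89 and 52 counts. Against a limit of 3 counts over the CT libraries together, CEACAM5 was at least 48.4-fold higher in KO.

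CEACAM1 (ENSG00000079385) was already present in CT, at 1.02, 0.938 and 1.10 CPM. In KO it was 5.06, 5.26 and 5.66 CPM, so that all KO libraries lay above all CT libraries. The mean was 5.23-fold higher (log2 fold change 2.36, SE 0.154). CEACAM3 (ENSG00000170956), a phagocytic receptor of granulocytes for bacteria that bind CEACAMs, had no count in CT and 0.218, 0.243 and 0.223 CPM in KO. These KO values rest on 5, 12 and 5 counts, at least 5.48-fold above the limit of 3 counts in CT.

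The remaining 3 members did not share this pattern. CEACAM7 (ENSG00000007306) had no count in CT and 1 count in KO, in replicate 2. CEACAM8 (ENSG00000124469) had 1 count in each of CT replicates 2 and 3 and none in KO. Both were at or under the limit of 3 counts in each genotype (0.0424 CPM in CT and 0.0317 CPM in KO), so no fold is given. CEACAM19 (ENSG00000186567), which lies apart from the other members on the same chromosome arm, was 6.92, 8.34 and 6.46 CPM in CT and 6.37, 6.01 and 5.88 CPM in KO. Its KO libraries lay just below the lowest CT library, with a log2 fold change of -0.23 (SE 0.105).

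Of the 7 members, 4 had enough counts for the fit over all 17767 tested genes (CEACAM1, CEACAM5, CEACAM6 and CEACAM19), CEACAM5 through its KO libraries alone. Of those 4, 3 were past the adjusted p of 0.05 in the direction of KO and none in the direction of CT, in a table where 32.8% of tested genes were called higher and 30% lower in KO. Since the members were chosen on this contrast, nothing is read from that count. CPM is not corrected for transcript length, so the members' levels are not ranked against each other.

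**Figure D1:**
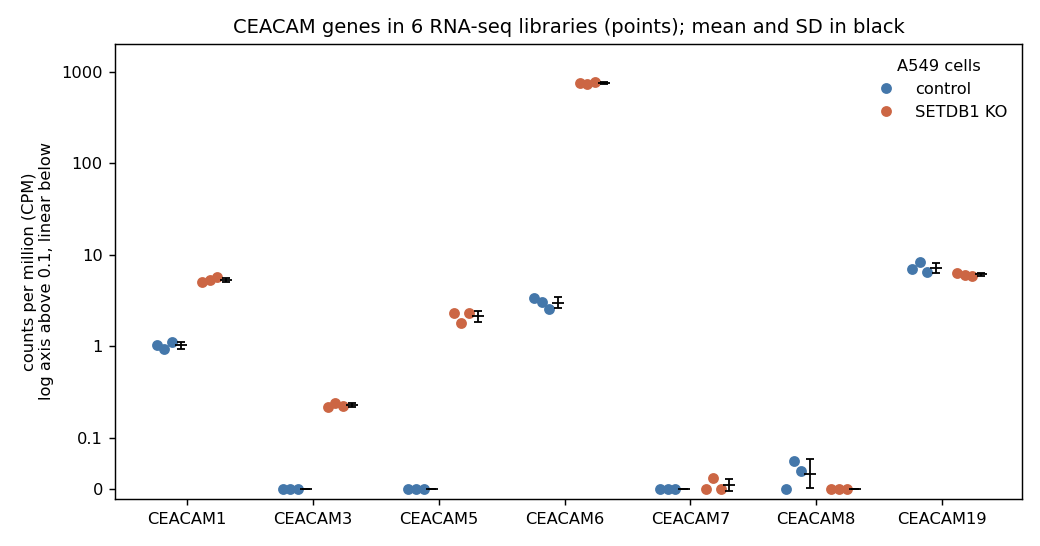
CPM of the 7 CEACAM genes in 3 control (blue) and 3 SETDB1 KO (orange) RNA-seq libraries, with the mean and SD in black; the axis is logarithmic above 0.1 and linear below. CEACAM6 moves from about 3 to over 700 CPM, CEACAM1, CEACAM3 and CEACAM5 are higher in every KO library, and CEACAM7 and CEACAM8 stay at or near 0.

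How the counting treated reads that match several paralogs is not given in the sources used here, so the small counts of CEACAM5 and CEACAM3 in KO were set beside the large count of CEACAM6 in the same libraries. CEACAM5 made up 0.305%, 0.246% and 0.299% of the sum of its own and CEACAM6 counts in the KO libraries (exact Clopper-Pearson 95% interval over the group 0.237% to 0.315%). CEACAM3 made up 0.0289%, 0.0333% and 0.0289% (0.0195% to 0.0471%). CEACAM7 and CEACAM8 had 1 and 0 counts beside the same 70658 counts of CEACAM6, so next to no reads were assigned to these paralogs in the libraries where CEACAM6 was highest. In CT, the interval for 0 counts of CEACAM5 beside 210 of CEACAM6 reached 1.74%, so a share as small as that in KO was not detectable at this depth. Whether part of the CEACAM1, CEACAM3 and CEACAM5 counts in KO came from CEACAM6 transcripts was not tested. CEACAM1 made up 25.8% of such a sum in CT (20.8% to 31.3%) and 0.705% in KO (0.645% to 0.770%), so the 2 genes did not change in proportion. These intervals cover counting error only.

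Markers of the blood cells in which CEACAM3 and CEACAM8 are best known were at or near 0. Of 19 granulocyte genes, 10 had no count in any library, MPO, CTSG, S100A8 and LTF among them, and 18 stayed under 1 CPM in every library. The list summed to 4.36 to 5.46 CPM in CT and 1.79 to 2.36 CPM in KO, most of it ITGAM, which fell from 4.21 to 1.57 CPM (adjusted p = 3.8e-09). Of 16 lymphocyte and monocyte genes, 15 stayed under 1 CPM, and the sum was 6.54 to 7.49 CPM in CT and 5.24 to 7.04 CPM in KO. Fibroblast markers summed to 12.2 to 12.4 CPM and 5.76 to 6.53 CPM, with COL1A2 and DCN at 0, and endothelial markers to 30.5 to 38.0 CPM and 34.9 to 36.9 CPM, with ERG at 0. Most of the endothelial sum was EGFL7, while CDH5 rose from 0.289 to 4.53 CPM (adjusted p = 1.5e-14) and KDR and TEK went from 1 to 13 counts each.

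As a description of values that also chose the members, the tested genes with the smallest distance to CEACAM6 over the 6 libraries were zinc finger genes. Distance was the Euclidean distance of log2(CPM + 0.5), each gene set against its own CT mean, among tested genes with a symbol. The 5 nearest were ZNF888 (distance 0.291), ZNF320 (0.521), ZNF727 (0.545), ZNF486 (0.555) and ZNF91 (1.16). ZNF888, ZNF486 and ZNF727 had no count in CT and were at least 2663-fold, 3075-fold and 2102-fold higher in KO than a limit of 3 counts. CEACAM6 was 251-fold higher and had 210 counts in CT, where ZNF320 and ZNF91 had 1 and 18. The distance therefore rests on the added 0.5, which bounds the change of a gene at or near 0 in CT, and is no sign of a like fold change. Zinc finger genes have close copies, and the likeness rests on 6 libraries that fall into the same 2 groups for every gene.

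Relatives of the family that had not entered the choice of members were low or silent in CT, and 4 pregnancy-specific glycoprotein genes (PSGs, secreted relatives known from the placenta) rose in KO. Of 15 other CEACAM and PSG genes, 6 could be tested, and 5 of these (PSG1, PSG5, PSG6, PSG9 and, less firmly, CEACAM16) were higher and none lower in KO. Among tested genes of chromosome 19, 58.8% were called higher and 11.2% lower, and among all tested genes 32.8% and 30%. Of the 6, PSG1, PSG6, PSG9 and CEACAM16 passed the expression cutoff (0.426 CPM in all libraries of a genotype) through the KO libraries alone, which favours a higher call, and no direction of the list is read from the count or from its median log2 fold change of 2.29 (0.34 over chromosome 19, where these genes lie, and 0.0038 over all tested genes). Of the 2 that passed in CT, PSG5 and PSG4, 1 was called. PSG9 was 0, 0.110 and 0.0687 CPM in CT and 1.53, 1.99 and 1.56 CPM in KO (log2 fold change 4.85, SE 0.42, adjusted p = 6.6e-11). PSG6 was 0.127, 0 and 0.206 CPM in CT and 2.31, 2.23 and 2.90 CPM in KO (4.21, SE 0.341). PSG5 went from 0.662 ± 0.0249 to 3.48 ± 0.118 CPM (SD, n = 3). All 3 stayed below 4 CPM in every library, so they rose from almost nothing to a low level. PSG4, the tested gene of the list that was not called, was 1.30 ± 0.236 CPM in CT and 1.75 ± 0.262 CPM in KO. CEACAM4, CEACAM18 and CEACAM21 had no count in any library. PSGs are also near-identical copies, so the split of reads among them is uncertain.

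Genes for binding partners and signalling of the CEACAMs were called about as often as genes in general. Of 43 listed genes 38 were tested, with 12 higher and 12 lower in KO (31.6% each, beside 32.8% and 30% of all tested genes) and a median log2 fold change of 0.027. DPP4, a membrane peptidase, was 0.532 ± 0.0984 CPM in CT and 3.64 ± 0.421 CPM in KO (SD, n = 3). It passed the expression cutoff through the KO libraries alone, which favours a higher call, and 1 other gene of the list passed through the CT libraries alone. PXN, the focal adhesion adaptor paxillin, rose from 29.8 to 51.0 CPM. The kinase FYN fell from 3.10 to 0.327 CPM (log2 fold change -3.14, SE 0.235), CALM2, a calmodulin gene, from 1035 to 530 CPM, and ITGAV, the alpha subunit of vitronectin-binding integrins, from 362 to 204 CPM. The phosphatases that CEACAM1 recruits, singled out after their values were seen, were both higher in KO: PTPN6 was 18.1 to 18.4 CPM in CT and 28.5 to 32.9 CPM in KO, and PTPN11 was 242 to 260 CPM and 303 to 316 CPM.

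Genes that build the GPI anchor, which CEACAM5 and CEACAM6 need to stay on the membrane, were likewise near the background. All 32 were in the table and 31 were tested, with 12 higher and 11 lower (38.7% and 35.5%, beside 32.8% and 30% of all tested genes; median log2 fold change 0.0042). Rises were small, the largest being 0.44 for DPM3, 0.40 for PGAP3 and 0.40 for PIGG on the log2 scale. The largest falls went further, at -0.98 for PGAP1, -0.93 for PIGF and -0.85 for PGAP4. Other GPI-anchored surface proteins differed more among themselves. Of 29 tested, 14 were higher and 8 lower in KO (48.3% and 27.6%, median 0.52), where TNFRSF10C and BST2 passed the cutoff through the KO libraries alone. BST2, which tethers virus particles, had no count in CT and 70 counts in KO, at least 17.4-fold above the limit of 3 counts. TNFRSF10C, a decoy receptor for TRAIL, went from 0.221 to 1.69 CPM and CNTN1, a neuronal adhesion protein, from 290 ± 9.01 to 1312 ± 41.0 CPM. THY1 fell from 7.34 to 0.947 CPM, the neurotrophic factor receptor GFRA1 from 43.4 to 5.92 CPM and the glypican GPC1 from 185 to 59.4 CPM. The list thus went both ways, with a larger share higher than the 32.8% of all tested genes. Whether the anchor has a part in this was not tested.

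Among transcription factors and signal mediators reported to act on CEACAM genes, 41 of 44 were tested, with 22 higher and 12 lower in KO (53.7% and 29.3%, beside 32.8% and 30% of all tested genes; median 0.18). All 41 passed the cutoff in CT. The 3 largest rises were in FOXA1, a pioneer factor of endoderm, which went from 16.6 ± 0.656 to 73.9 ± 2.23 CPM (log2 fold change 2.16, SE 0.057), SOX2, which went from 6.94 to 25.7 CPM, and EHF, an epithelial ETS factor, which went from 14.1 to 46.9 CPM. The 3 largest falls were in MYC, from 92.6 to 50.3 CPM, FOSL1, from 14.4 to 8.47 CPM, and TFAP2C, from 44.9 to 26.9 CPM. Of the E-box factors USF1 and USF2, named because of the motif in the CEACAM5 and CEACAM6 windows, USF1 was 35.0 CPM in CT and 36.9 CPM in KO (adjusted p = 0.27), and USF2 was 75.9 ± 4.80 CPM and 108 ± 3.98 CPM (log2 fold change 0.51, adjusted p = 6.3e-10).

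Genes of glandular epithelial surfaces and mucins, the setting in which CEACAM5 and CEACAM6 are usually found, include several that rose. Of 30 genes 22 were tested, and 20 were higher and none lower in KO (median log2 fold change 1.79). Over all tested genes 32.8% were called higher and 30% lower. Of the 22, 8 (MUC1, MUC2, TSPAN8, CLDN7, KRT20, MUC16, LGALS4 and TFF1) passed the cutoff through the KO libraries alone, which favours a higher call. The 13 that passed in CT were all higher in KO (median 1.70), a subset formed after the values were seen. The list was drawn up with earlier results of these data known, so its count is a description. TSPAN8, a tetraspanin of gut epithelium, had no count in CT and 464 in KO, at least 116-fold above the limit of 3 counts. MUC16, the CA-125 antigen, was 0.0950 CPM in CT and 3.23 CPM in KO (log2 fold change 5.19, SE 0.313), and LCN2, an iron-binding secreted protein, went from 0.728 ± 0.293 to 20.6 ± 0.874 CPM (4.82, SE 0.141). The 2 tested genes that were not called were ESRP2 and CLDN7. Summed lung epithelial markers were also higher in KO, as given above, and their part in this list's counts was not tested.

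**Figure D2:**
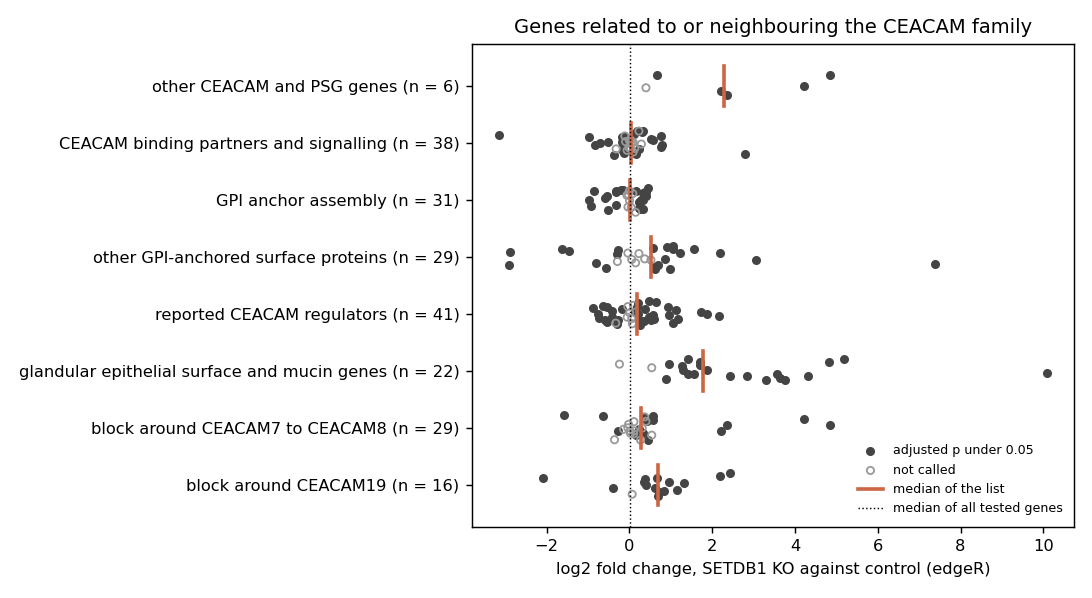
edgeR log2 fold changes (KO against control) of the tested genes of 6 gene lists and 2 blocks of neighbouring genes; filled points had an adjusted p under 0.05, open points were not called, orange bars are list medians and the dotted line is the median of all tested genes. The relatives (median 2.29) and the glandular list (median 1.79) lie to the right, with 4 of 6 and 8 of 22 genes tested through their KO libraries alone, whereas the partner and GPI assembly lists centre near 0.

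By RefSeq order on chromosome 19, CEACAM7, CEACAM5, CEACAM6 and CEACAM3 follow each other with no other protein-coding gene between them. After them come 23 other protein-coding genes, then CEACAM1 and CEACAM8 as neighbours, then the PSGs. CEACAM19 lies a further 51 protein-coding genes away. In the block from 10 genes before CEACAM7 to 10 genes after CEACAM8, 29 of 43 non-member genes were tested. In KO 12 were higher and 3 lower (41.4% and 10.3%, beside 32.8% and 30% of all tested genes). Over all tested genes of chromosome 19 the shares were 58.8% and 11.2%, so the block held a smaller share of higher genes than its chromosome, although 5 of its 29 tested genes passed the cutoff through the KO libraries alone. The block's rises were largest in PSG9, PSG6 and PSG5, given above. Its falls were in TMEM145, from 1.48 to 0.461 CPM (log2 fold change -1.58, SE 0.244), EXOSC5, an exosome subunit, from 46.4 to 29.7 CPM, and LIPE, hormone-sensitive lipase, from 6.06 to 5.02 CPM, whose adjusted p of 0.041 by edgeR rose to between 0.052 and 0.18 under 9 of 13 alternatives.

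The 4 stretches of the block were then read separately, a division made after the values were seen. Of the 10 genes before CEACAM7, 6 were tested and 1 was higher and 1 lower (median log2 fold change 0.059). Of the 23 genes between CEACAM3 and CEACAM1, 18 were tested, 7 were higher and 2 lower, and the median was 0.20. Over all tested genes 32.8% were higher and 30% lower, and over those of chromosome 19 58.8% and 11.2%. No difference between the stretches is read from these counts. The 10 genes after CEACAM8 are the PSGs already described. The genes right beside the CEACAM7 to CEACAM3 group, ERICH4, CEACAM21 and CEACAM4 before it and LYPD4 and DMRTC2 after it, had 0 to 2 counts over all libraries and could not be tested, so these medians describe more distant genes.

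Around CEACAM19, 16 of 20 neighbours were tested, and 13 were higher and 2 lower in KO (81.2% and 12.5%, median log2 fold change 0.68). The shares were 58.8% and 11.2% of the tested genes of chromosome 19 (median 0.34) and 32.8% and 30% of all tested genes. Of the 16, 2 passed the cutoff through the KO libraries alone, CEACAM16 among them, which favours a higher call. ZNF229 went from 5.81 to 31.6 CPM, ZNF233 from 2.38 to 10.6 CPM and APOE, an apolipoprotein, from 1.22 to 2.94 CPM. APOC1 fell from 9.82 to 2.39 CPM and TOMM40, a mitochondrial import channel, from 187 to 143 CPM. CEACAM16, a secreted family member known from the inner ear, was 0.552 ± 0.184 CPM in CT and 0.878 ± 0.0793 CPM in KO (SD, n = 3; edgeR adjusted p = 0.041), and its adjusted p was between 0.052 and 0.25 under 8 of 13 alternatives, 0.056 with the replicate block among them. CEACAM19 itself had a lower mean in KO, on a chromosome of which most tested genes were called higher.

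Peaks in the CEACAM window were compared by overlap of at least 1 base between the 2 lists of a mark. With 1 list per genotype there is no replicate error, and intervals are exact Clopper-Pearson 95% intervals for counting error only. H3K9me3, the mark that SETDB1 deposits, had 33 peaks in CT covering 106 kb and 17 in KO covering 71.7 kb. Of the CT peaks 21 (63.6%, interval 45.1% to 79.6%) had no KO partner, beside 60% of H3K9me3 peaks genome-wide, so the loss here was near the genome's. Of the KO peaks 3 (17.6%, 3.80% to 43.4%) had no CT partner, beside 56.3% genome-wide. On chromosome 19 the shares were 73.1% of CT and 8.53% of KO H3K9me3 peaks, both inside the window's intervals. The widest H3K9me3 peaks seen in CT alone were chr19:42135812-42140594 and chr19:43052209-43056197, and the widest seen in KO alone was chr19:42228440-42230726.

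H3K27me3, the Polycomb mark, covered the most of the window, with 52 peaks over 318 kb in CT and 62 over 332 kb in KO. Of the CT peaks 6 (11.5%, interval 4.35% to 23.4%) had no partner, below the 47% of all CT peaks of this mark, and of the KO peaks 19 (30.6%, 19.6% to 43.7%), beside 29%. On chromosome 19 the shares were 23.1% in CT and 37.3% in KO, both inside the window's intervals. H3K27ac, a mark of active promoters and enhancers, had 53 peaks over 126 kb in CT and 59 over 130 kb in KO. Peaks without a partner were 13 in CT (24.5%, 13.8% to 38.3%) and 17 in KO (28.8%, 17.8% to 42.1%), near the 26.9% and 31.3% of all H3K27ac peaks. H3K4me3, a mark of active promoters, had 54 and 60 peaks, of which 3 in CT (5.56%, 1.16% to 15.4%) and 8 in KO (13.3%, 5.94% to 24.6%) had no partner, beside 14.9% and 30.2%. CTCF, the factor that sits at many TAD borders, had 58 and 74 peaks, with 9 (15.5%, 7.35% to 27.4%) and 25 (33.8%, 23.2% to 45.7%) unmatched, beside 44.1% and 61.4%. On chromosome 19 the H3K27ac shares were 23.5% in CT and 33.9% in KO, inside the window's intervals. For H3K4me3 the CT share of 12.2% was inside the window's interval and the KO share of 30.9% above it. The CTCF shares, 36.1% in CT and 52.7% in KO, were both above the window's intervals. In total counts the window was therefore no richer in new active marks than the genome.

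The new active marks lay together, however. Of the 17 H3K27ac peaks seen in KO alone, 8 followed each other without an interposed shared peak in a stretch of 45.8 kb (chr19:42258288-42304133, hg19). This stretch was picked after the peaks were seen, and 116 of 10503 such runs in the genome had at least as many peaks. H3K27ac peaks covered none of it in CT and 21.9 kb (47.7%) in KO. The stretch was chosen by these KO peaks, so this contrast was largely fixed by the choice and is no support for it. H3K27me3 peaks covered 32.9 kb (71.7%) in CT and 3.34 kb (7.28%) in KO. H3K4me3 coverage went from 2.01 kb (4.39%) to 12.3 kb (26.9%), with 2 peaks in CT and 7 in KO. No H3K9me3 peak lay in the stretch in either genotype. The nearest H3K9me3 peaks on either side, chr19:42243875-42246024 and chr19:42304798-42307029, were seen in CT alone. CTCF peaks in the stretch numbered 5 in CT and 3 in KO.

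The widest H3K27ac peak of the window found in KO alone lay in this stretch, at chr19:42274644-42285245 (10602 bases), followed by chr19:42295532-42298245 (2714 bases). A further 2 of the 5 widest, chr19:42302187-42304133 and chr19:42258288-42260156, were at its ends, which they define. The 4 H3K4me3 peaks of at least 1 kb found in KO alone were all inside it, the widest at chr19:42261032-42264524 (3493 bases). The widest H3K27me3 peaks of the window found in CT alone were there too, at chr19:42273167-42277779 (4613 bases) and chr19:42293239-42296195 (2957 bases). H3K27me3 peaks found in KO alone lay elsewhere, the widest at chr19:42648339-42654016 (5678 bases), and so did H3K27ac peaks found in CT alone, the widest at chr19:42701488-42704726 (3239 bases).

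**Figure D3:**
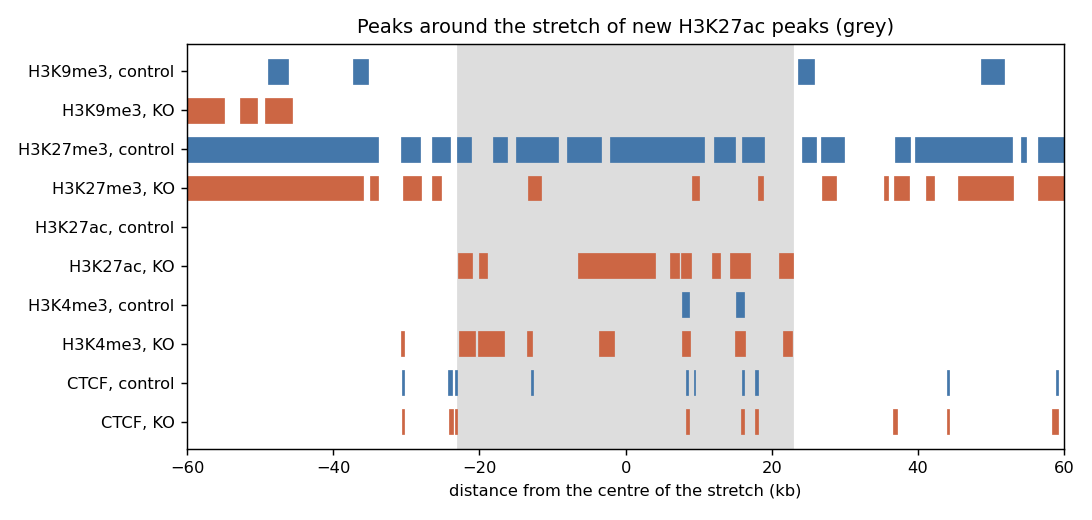
Peaks of 5 marks in control (blue) and KO (orange) within 60 kb of the centre of the 45.8 kb stretch of new H3K27ac peaks (grey), as distance from its centre in kb. Control H3K27me3 peaks fill 71.7% of the stretch, and KO H3K27ac peaks, by which it was chosen, fill 47.7%. No H3K9me3 peak lies in it in either genotype, and the nearest on either side are seen in control alone.

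Coverage was also counted in 11 bins of 100 kb. These bins hold the same peaks, so they give no separate support for the stretch. In the bin chr19:42200001-42300000 H3K27ac coverage went from 3.32 to 23.2 kb, H3K4me3 from 4.75 to 13.9 kb and H3K27me3 from 69.8 to 38.9 kb. H3K9me3 coverage in that bin went the other way from the window as a whole, from 6.28 to 16.1 kb. Both bins before it stayed under H3K27me3 (84.4 and 78.3 kb in CT, 86.8 and 87.1 kb in KO) with little H3K27ac (1.47 and 0 kb in CT). The bin richest in H3K27ac, chr19:42700001-42800000, went from 58.1 to 40.3 kb. In the last bin, chr19:43000001-43100000, H3K9me3 went from 15.8 to 7.68 kb, H3K27me3 from 33.7 to 42.9 kb and H3K27ac from 3.31 to 4.62 kb. The next largest gain in H3K27ac coverage was in chr19:42300001-42400000, which holds the end of the stretch, from 18.1 to 22.8 kb.

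**Figure D4:**
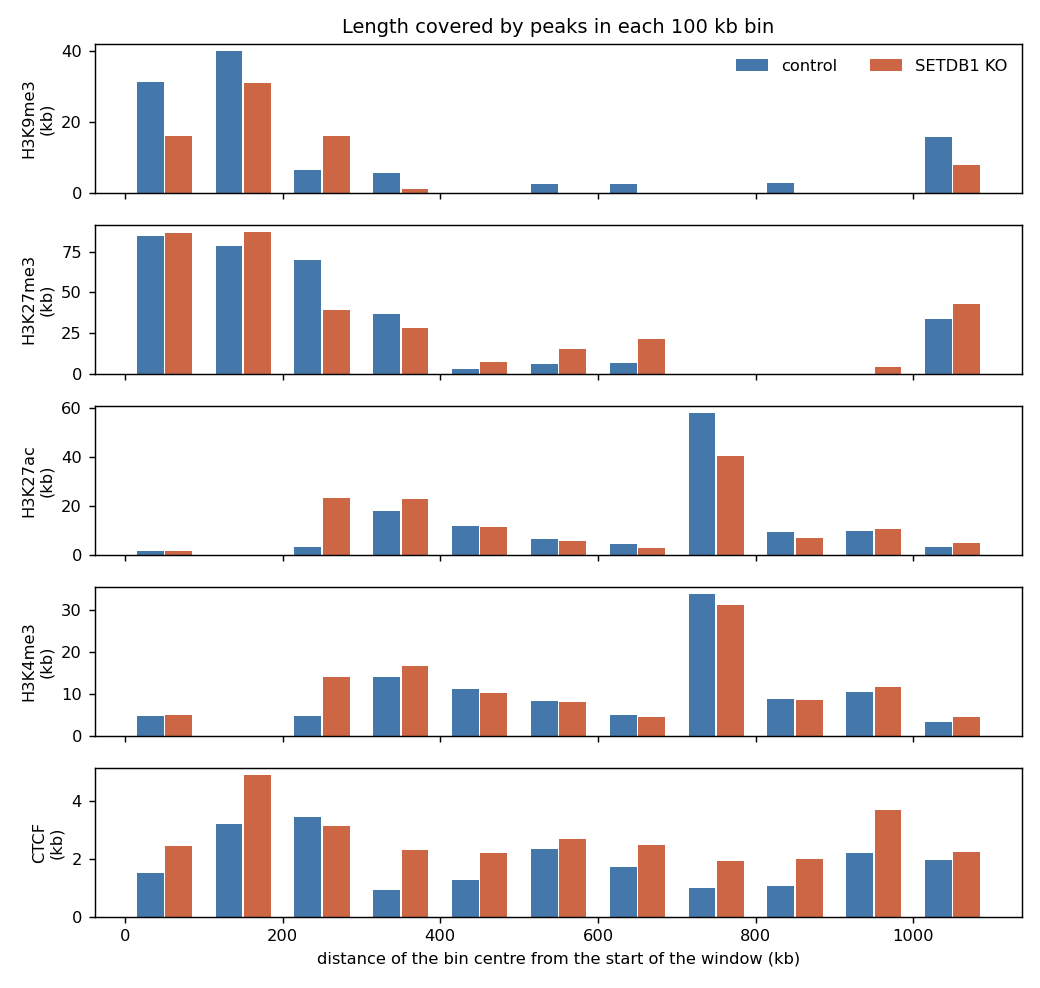
Length covered by peaks (kb) in each 100 kb bin of the window, control (blue) and KO (orange), for 5 marks against the distance of the bin centre from the window's start. At 250 kb H3K27ac rises from 3.32 to 23.2 kb while H3K27me3 falls from 69.8 to 38.9 kb.

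The compartment signal is a signed Hi-C score per 100 kb bin. Its positive side was the side of active chromatin, since 93.6% of control H3K27ac peaks lay in bins of positive signal, which are 55.2% of bins. All 11 bins of the window had a lower mean in KO, and 10 passed limma's test (adjusted p under 0.05) as lower and none as higher. Genome-wide 37.3% of 26496 bins were called lower and 21.6% higher, while on chromosome 19 109 of 419 bins were lower and 189 higher. The largest difference was in the last bin, chr19:43000001-43100000, which was -0.031 and -0.11 in the CT libraries and -0.59 and -0.61 in KO (difference -0.53, SE 0.0442, adjusted p = 3.1e-06 by limma). The bin before it went from 0.24 and 0.22 to -0.06 and -0.25 (difference -0.39, SE 0.0593, adjusted p = 0.00025 by limma) and was the bin whose mean changed sign.

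The other bins kept a positive mean. In order from the window's start, their differences were -0.12, -0.20, -0.057, -0.11, -0.14, -0.20, -0.17, -0.15 and -0.26. The third, chr19:42200001-42300000, was the bin that was not called: it was 0.22 and 0.30 in CT and 0.22 and 0.18 in KO (adjusted p = 0.30 by limma), and its libraries overlapped. It is also the bin that holds most of the stretch of new H3K27ac peaks. The number called lower depended on the KO libraries: it was 6 without KO replicate 1 and 4 without KO replicate 2, with all 11 differences still negative. The last bin's adjusted p was 0.00015 or lower by limma without any one library.

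**Figure D5:**
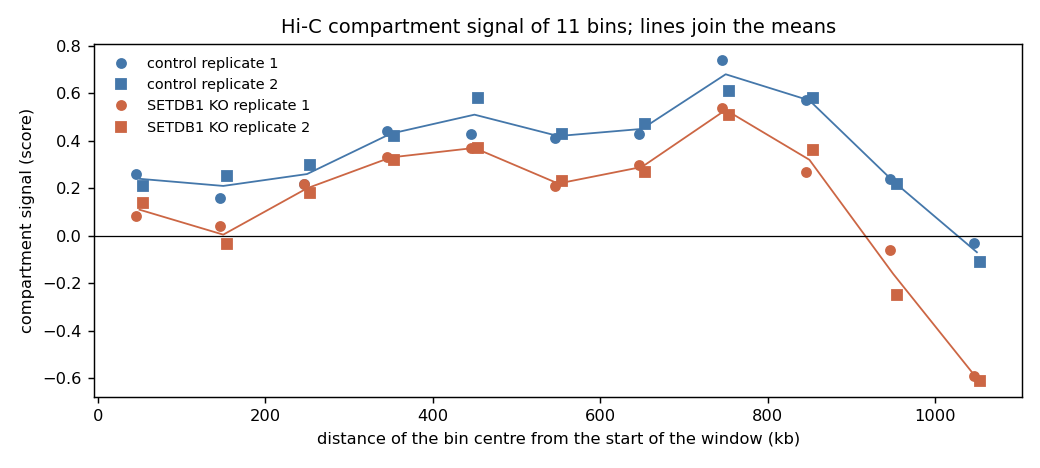
Compartment signal of the 11 bins of the window in 2 control (blue) and 2 KO (orange) Hi-C libraries, with lines through the means, against the distance of the bin centre from the window's start in kb. The KO libraries lie below control in 10 bins, overlap it at 250 kb, and part most at the right end, where the last bin goes from -0.069 to -0.60.

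By edges matched within 1 bin, the domain map of the window differed little. TADs (self-interacting domains called from Hi-C on a 20 kb grid) had 12 edges in the window in CT and 11 in KO, and every edge had a partner in the other list within 1 bin, where genome-wide 5.52% of CT edges and 7.44% of KO edges had none. In the same bin as a partner lay 8 of 12 CT edges and 8 of 11 KO edges. Genome-wide 1542 of 7011 CT edges and 1736 of 7205 KO edges had no partner in the same bin. The stretch of new H3K27ac peaks was inside one domain in both genotypes, chr19:42100001-42340000 in CT and chr19:42100001-42360000 in KO. Over the CT domain's span, H3K27ac went from 3.32 to 25.2 kb, H3K4me3 from 4.75 to 15.2 kb and H3K27me3 from 172 to 142 kb. In the next domain, chr19:42360001-42460000, H3K4me3 was 20.8 kb in CT and 21.5 kb in KO. The gain in H3K4me3 coverage was thus larger in the domain holding the stretch than in its neighbour. These sums count the stretch's peaks again and are no separate support for it.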

How the data were processed

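RNA-seq, Hi-C and ChIP-seq of A549 cells, control and SETDB1 KO, were used as deposited by the authors on hg19. The submitters' processing notes name STAR 2.6.1c, edgeR 3.30.0, Bowtie2 2.2.3, SAMtools 1.5, Picard and MACS2. The counter and its treatment of reads shared by paralogs are not given in the sources used here. Gene counts were deposited by the authors without normalization (total RNA, stranded kit, per the labels' protocols). The compartment signal is a score per 100 kb bin as deposited, and its method and scale are not stated. Peak and TAD lists were deposited by the authors as positions without a value, 1 per genotype, per the labels for both replicates together.

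Counts were fitted with edgeR 4.0.16 (quasi-likelihood test, TMM, filterByExpr, 17767 genes, Benjamini-Hochberg), without a replicate block. CPM uses TMM-scaled library sizes. Compartment signal was tested with limma 3.58.1 over 26496 bins. On simulated data 94.4% of 196 changed genes (17406 genes tested) and 100% of 200 changed bins (26496 bins) were recovered, with false shares of 5.13% and 5.21% among the calls. Far fewer genes were changed there than the 11157 called in the real data, so these shares need not hold for the real data. Replicates of a genotype differed by more than counting noise and were all kept. Deviations of same-numbered RNA libraries correlated at 0.169, 0.103 and 0.0616, so the numbers were not taken to pair samples. Members, gene lists and tests were chosen with earlier results of these data known. Genes named by rule are all members, SETDB1, the 3 largest called changes each way per list or block with at least 10 counts, and the 5 genes nearest to CEACAM6; named peaks are the up to 5 widest of at least 1 kb seen in 1 genotype. A gene that this rule also names is not reported here. Other genes, markers and untested or uncalled list genes among them, were named after their values were seen. Promoter windows were aligned with Biopython 1.88, a comparison added after the data were seen, in place of a protein alignment that was not run. Alternatives were other normalizations, no expression filter, DESeq2 1.42.0, voom weights in limma, the replicate number as a block, fits without each library in turn, and other rules for bins, peaks and TAD edges.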

Additional observations from a re-analysis of the deposited data

How the results depend on the processing

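Among the tested members, the genes named by rule and the window's bins, no difference changed sign under any alternative run. The balance of calls did: 5825 genes were higher and 5332 lower, against 5432 and 5802 with upper quartile scaling (median -0.031). The partner list's 12 higher and 12 lower became 11 and 14 with that scaling and 15 and 8 without the expression filter. Among genes passing the cutoff in the control libraries, an alternative chosen after seeing the data, 1 relative and 13 glandular genes were called higher, in place of 5 and 20. CEACAM6's log2 fold change was between 7.86 and 8.09 and that of CEACAM1 between 2.32 and 2.43 under all 13 alternatives. That of CEACAM19 was between -0.32 and -0.14. That of CEACAM5 was 6.58 with limma voom, 8.06 with DESeq2 and up to 8.94 otherwise, since no control count fixes it. The genes called between genotypes numbered 11157, between 9759 and 11988 under the alternatives, and 11655 with the replicate block. With the block, 9 of the window's 11 compartment bins were called lower in place of 10, and with the block no list count moved by more than 1.5 times. Leaving out 1 Hi-C library gave between 4 and 8 bins, and each such fit assumes that the lone library of a genotype varies like the others. Peak partners depended on the overlap rule. With a reciprocal overlap of 50%, the shares without a partner were 41.5% (CT) and 47.5% (KO) for H3K27ac, 42.3% and 51.6% for H3K27me3, and 58.8% for H3K9me3 in KO. In a window widened by 500 kb on each side, H3K27ac shares were 33.3% in CT and 22.1% in KO, in the other order than in the window. Among the wider 50% of each list, 32.5% of KO H3K4me3 peaks had none. The cause of these shifts was not tested. Peak files hold no depth, so a missing peak may be a shallow library, and genes under the limit of 3 counts were not detectable at this depth.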
